A study of Mus musculus with 10 samples.

Results

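The receptor genes Olfr1148 to Olfr1272 form the second part of the long odorant receptor (OR) cluster of mouse chromosome 2. They were chosen by name: every probe set whose annotation gave 1 symbol, with a receptor number from that of Olfr1148 to that of Olfr1272, was a member. This gave 92 probe sets for 92 genes, of 1034 OR probe sets and 35556 probe sets in all. All 92 genes lie on chromosome 2 in the RefSeq annotation, 91 as protein coding genes and 1, Olfr1174, as a pseudogene. The RefSeq table held 28 further receptors of these numbers in the same span, 21 of them pseudogenes by symbol, that had no probe set of their own, and 7 probe sets were annotated to several receptors of the cluster. Receptor number followed RefSeq order with 1 exception, Olfr1205, which lies before Olfr1204.

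Whole main olfactory epithelium (MOE), the tissue of the nose that holds the olfactory neurons, was profiled on Affymetrix Mouse Gene ST arrays at 5 weeks of age. The H2be-GF group had 4 arrays. These mice carry a transgene in which the Omp promoter, active in mature olfactory neurons, drives FLAG-tagged H2BE, a histone H2B variant found in these neurons; the line was established from transgenic founders crossed to C57Bl/6 mice and, per the study, leaves a band of neurons near zone 2 without the transgene. The wild-type (WT) group had 6 arrays and carried no transgene. Per the study, the RNA on an array came from a pool of mice, with larger pools in the H2be-GF group, and the series gives an equal mixture of both sexes. The labels mark the arrays as replicates, so the tests rest on the spread from pool to pool.

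ORs are the receptors through which olfactory neurons detect odors. Each mature neuron is known to express a single OR gene, from 1 allele, and the genes lie in clusters that arose largely by local duplication, so that neighbours are often of similar sequence. Because a receptor's RNA in whole MOE comes from the few neurons that chose it, its level is a product of how many neurons express it and how much RNA each holds. On these arrays, fewer neurons of a kind and less RNA per neuron cannot be told apart. The older MOR names used below group mouse ORs into subfamilies by protein similarity; 89 members had a single such subfamily, 1 had several and 2 had none. MOR233 was the subfamily with the most members, 18, followed by MOR231 with 16, MOR174 with 11, MOR225 with 9, and MOR230 and MOR232 with 7 each.

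The starts of the coding sequences are shown first for receptors of the same subfamily, of which some were called below and others were not. Whether the called and the uncalled ones differed from each other in their change was not tested. The sequences are the first 50 coding bases from RefSeq (GRCm38.p6), with the start codon in capitals. Within MOR230, Olfr1206 was called lower in H2be-GF mice, while Olfr1195 and Olfr1209 were not called.
Olfr1206: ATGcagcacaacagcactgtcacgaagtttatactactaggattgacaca
Olfr1195: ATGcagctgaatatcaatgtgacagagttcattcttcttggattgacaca
Olfr1209: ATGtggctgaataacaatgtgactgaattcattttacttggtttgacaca
Olfr1206 and Olfr1195 had 38 of these 50 bases in common, Olfr1195 and Olfr1209 had 42, and Olfr1206 and Olfr1209 had 34. Within MOR225 the same is shown for Olfr1178, which was called lower, and Olfr1184, which was not. Within MOR233 it is shown for Olfr1211, which was called lower, and for its neighbour Olfr1212, which was not.
Olfr1178: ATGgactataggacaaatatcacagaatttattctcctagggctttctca
Olfr1184: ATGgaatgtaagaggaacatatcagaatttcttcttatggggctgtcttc
Olfr1211: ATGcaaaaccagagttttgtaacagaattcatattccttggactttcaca
Olfr1212: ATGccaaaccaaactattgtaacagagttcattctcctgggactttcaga
Olfr1178 and Olfr1184 had 35 of 50 bases in common, and Olfr1211 and Olfr1212 had 41. Such a stretch was at hand for 56 members. Bases were compared place by place from the start codon, with no alignment and no gaps. The median identity of the stretch was 78% over 119 pairs of the same subfamily and 40% over the 1421 other pairs. The latter include pairs with a member of several or no subfamilies.

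The values are log2 signals as the authors normalized them, so a difference of 1 is a doubling. All 92 members had a mean above 5 over the 10 arrays, 74 had a mean above 7 and 18 had a mean of 7 or below. Single values ran between 4.43 and 10.81, and none was at 0. Following the study's methods, calls were made among the 748 ORs with a mean above 7, by limma with Benjamini-Hochberg adjustment over these ORs at 0.05. The array medians over all probe sets with a gene symbol lay between 8.23 and 8.31. The median SD of a member among replicates was 0.13 in H2be-GF mice and 0.14 in WT mice, and the median standard error of a change was 0.09.

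Of the 74 members above 7, 8 were called lower and 1 was called higher in H2be-GF mice. That is 10.8% lower and 1.35% higher; over all 748 ORs tested, 44 were called lower (5.88%) and 30 higher (4.01%), and 9.89% were called in either direction. The members called lower were Olfr1205, Olfr1180, Olfr1206, Olfr1178, Olfr1211, Olfr1183, Olfr1179 and Olfr1260, and the member called higher was Olfr1259. Of these, Olfr1180 passed the mean of 7 only through its WT arrays. The differences between H2be-GF and WT means ran between -0.57 and 0.31, with a median of 0.00 over the members and 0.02 over all ORs above 7. A negative difference was seen for 35 of the 74 members (47.3%), against 46.3% of all ORs. At an unadjusted p under 0.05, 15 of the 74 members were lower and 9 higher, where 81 of the 748 ORs were lower (10.8%) and 91 higher (12.2%). Whether the cluster differed from other ORs in its share of falls was not tested. Over the whole cluster the middle of the differences thus lay at 0, while 8 single receptors were called lower and 1 was called higher.

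**Figure D1:**
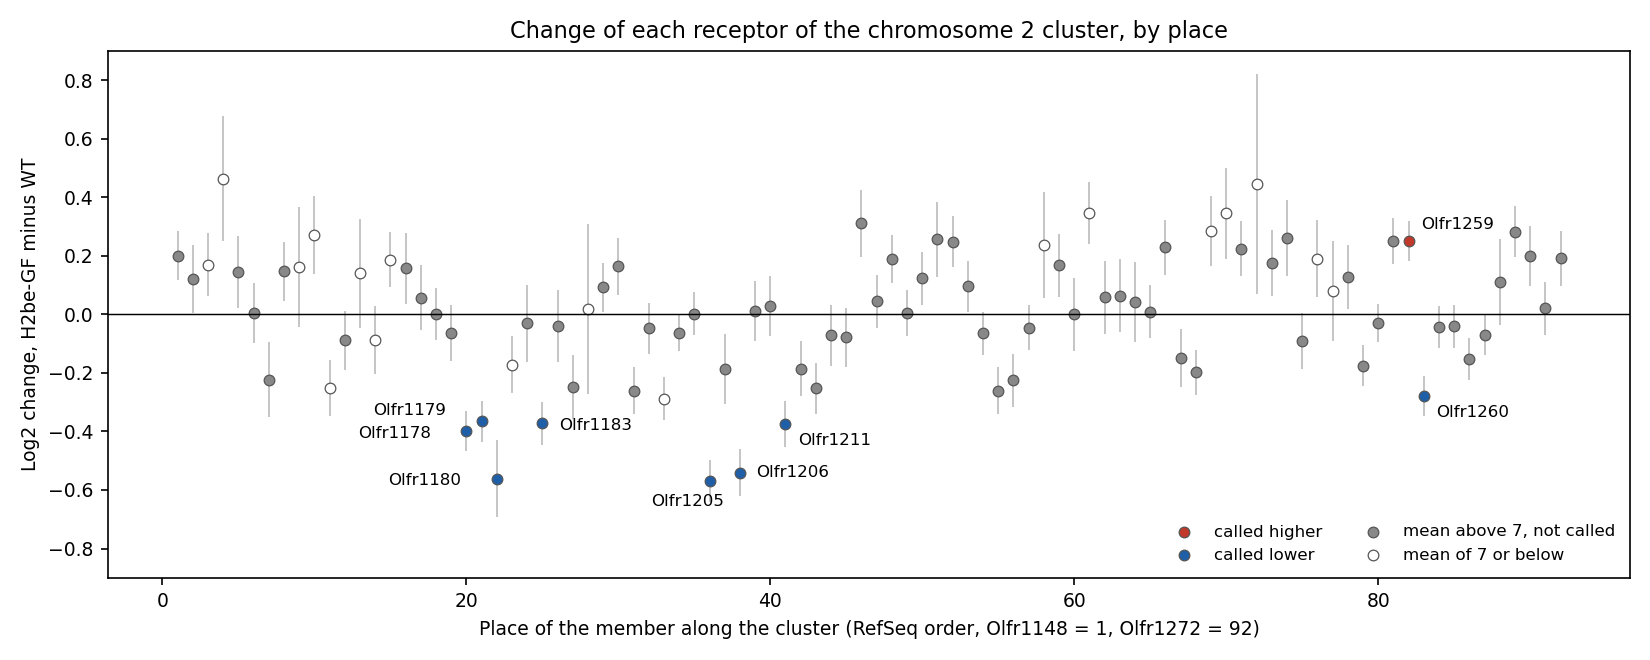
Log2 change (H2be-GF minus WT) of each of the 92 members, on the vertical axis, against its place along the cluster in RefSeq order, on the horizontal axis; bars are standard errors of the limma fit. Of the 8 members called lower (blue), 7 lie between Olfr1178 and Olfr1211, among others that were not called; Olfr1259 (red) and Olfr1260 lie next to each other on opposite sides of 0.

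Olfr1205, a MOR230 receptor, had the largest called difference. Its log2 signals were 8.55, 8.47, 8.61 and 8.68 on the H2be-GF arrays, against a lowest, median and highest value of 8.98, 9.15 and 9.30 on the 6 WT arrays. All 4 H2be-GF arrays lay below every WT array. The change was -0.57 with a standard error of 0.07 (0.674 times the WT level, adjusted p = 0.0014 over ORs).

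Olfr1206, of the same subfamily, lies close by and gave a similar difference. It measured 9.09, 9.08, 9.08 and 9.19 in H2be-GF mice, against 9.48, 9.67 and 9.79 as the lowest, median and highest values in WT mice. The groups did not overlap, and the change was -0.54 with a standard error of 0.08 (0.688 times, adjusted p = 0.0036). Olfr1205 and Olfr1206 were also the members called when p-values were adjusted over all 23194 probe sets tested (adjusted p = 0.0098 and 0.0306), a rule by which 9 probe sets (0.0388%) were lower and 11 (0.0474%) higher, or 0.0862% in either direction. By that stricter rule 0 members were called without H2be-GF 1, and 1 without H2be-GF 2, 3 or 4 or WT 2, 4, 5 or 6. A separate probe set annotated to both of these receptors and to Olfr1201 differed by -0.56, with a standard error of 0.07 and groups that did not overlap (adjusted p = 0.0084 over all probe sets). Probe sequences were not used here, so whether the 3 probe sets measure separate transcripts was not tested. The other 6 shared probe sets of the cluster differed by -0.02 to 0.18 and none was called over all probe sets.

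A run of 3 receptors, Olfr1178, Olfr1179 and Olfr1180, all of MOR225, was called lower. Olfr1178 measured 8.87, 9.05, 8.91 and 8.86 in H2be-GF mice, against 9.20, 9.32 and 9.42 as the lowest, median and highest values in WT mice. Its change was -0.40 with a standard error of 0.07 (0.758 times, adjusted p = 0.0072), and the groups did not overlap. Olfr1179 measured 8.11, 7.90, 7.95 and 7.96 in H2be-GF mice, against 8.21, 8.33 and 8.46 in WT mice, given in the same way. Its change was -0.37 with a standard error of 0.07 (0.776 times, adjusted p = 0.0094). The highest H2be-GF value of Olfr1179 lay 0.10 below its lowest WT value.

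Olfr1180 was a dimmer and more variable receptor. Its mean was 6.90 in H2be-GF mice and 7.46 in WT mice, so it passed the mean of 7 only through the WT arrays. It measured 7.09, 6.85, 7.06 and 6.60 in H2be-GF mice, against 7.26, 7.37 and 7.83 as the lowest, median and highest values in WT mice. The groups did not overlap and the change was -0.56, but its standard error of 0.13 was the largest of the called members (0.678 times, adjusted p = 0.0211). Without H2be-GF 2 or without H2be-GF 4 this call was lost, with an adjusted p of up to 0.0707. Over ORs with a mean above 5, with all arrays, its adjusted p by limma was 0.0281. Before the run, Olfr1176, a MOR174 receptor, differed by -0.07 (95% interval -0.27 to 0.14). After it came Olfr1181, a MOR225 receptor below the mean of 7 needed for the test, with 6.85, 6.83, 6.67 and 6.91 in H2be-GF mice, against 6.74, 6.96 and 7.29 as the lowest, median and highest values in WT mice. The groups overlapped, though all 4 H2be-GF arrays lay below the WT mean, and the difference was -0.17 (-0.38 to 0.04). The next member, Olfr1182 of MOR225, differed by -0.03 (-0.32 to 0.26).

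Olfr1183, of MOR230, was the next called receptor along the cluster. It measured 7.44, 7.35, 7.39 and 7.57 in H2be-GF mice, against 7.71, 7.78 and 8.01 as the lowest, median and highest values in WT mice. The change was -0.37 with a standard error of 0.07 (0.772 times, adjusted p = 0.0105), again without overlap. Its neighbour Olfr1184, of MOR225, differed by -0.04 (95% interval -0.31 to 0.23), with H2be-GF values inside the WT range.

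Olfr1211, of MOR233, was called lower as well. It measured 8.19, 8.28, 8.34 and 8.39 in H2be-GF mice, against 8.57, 8.63 and 8.88 as the lowest, median and highest values in WT mice. All H2be-GF arrays lay below all WT arrays, and the change was -0.37 with a standard error of 0.08 (0.771 times, adjusted p = 0.0119). Its neighbours were not called: Olfr1212 differed by -0.19 (adjusted p = 0.265) and Olfr1209 by 0.03 (95% interval -0.20 to 0.26). Around Olfr1205 and Olfr1206, Olfr1202 differed by 0.00 (-0.16 to 0.17), Olfr1204 by -0.19 (-0.45 to 0.08) and Olfr1208 by 0.01 (-0.21 to 0.23). Olfr1204 lies between Olfr1205 and Olfr1206, and the other 2 lie on either side of them.

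The last called pair lies near the far end of the cluster. Olfr1259 and Olfr1260 are neighbours, both of MOR232, and were called in opposite directions. Olfr1259 measured 8.86, 8.78, 8.88 and 9.01 in H2be-GF mice, against 8.52, 8.64 and 8.73 as the lowest, median and highest values in WT mice. Its change was 0.25 with a standard error of 0.07 (1.19 times, adjusted p = 0.0456). Olfr1260 measured 9.36, 9.25, 9.22 and 9.07 in H2be-GF mice, against 9.40, 9.52 and 9.56 in WT mice, given in the same way, for a change of -0.28 with a standard error of 0.07 (0.825 times, adjusted p = 0.0253). Neither receptor's groups overlapped, but the gaps between groups were small, 0.05 for Olfr1259 and 0.04 for Olfr1260. Both calls were weak. Leaving out single arrays lost the call of Olfr1259 in 8 of 10 cases (adjusted p of up to 0.104), and the call of Olfr1260 without H2be-GF 2, 3 or 4 or WT 3 or 6 (up to 0.0678). Olfr1258, on the other side of Olfr1259, differed by 0.25 and just missed the threshold (adjusted p = 0.0674), while Olfr1261 differed by -0.04 (95% interval -0.20 to 0.11).

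**Figure D2:**
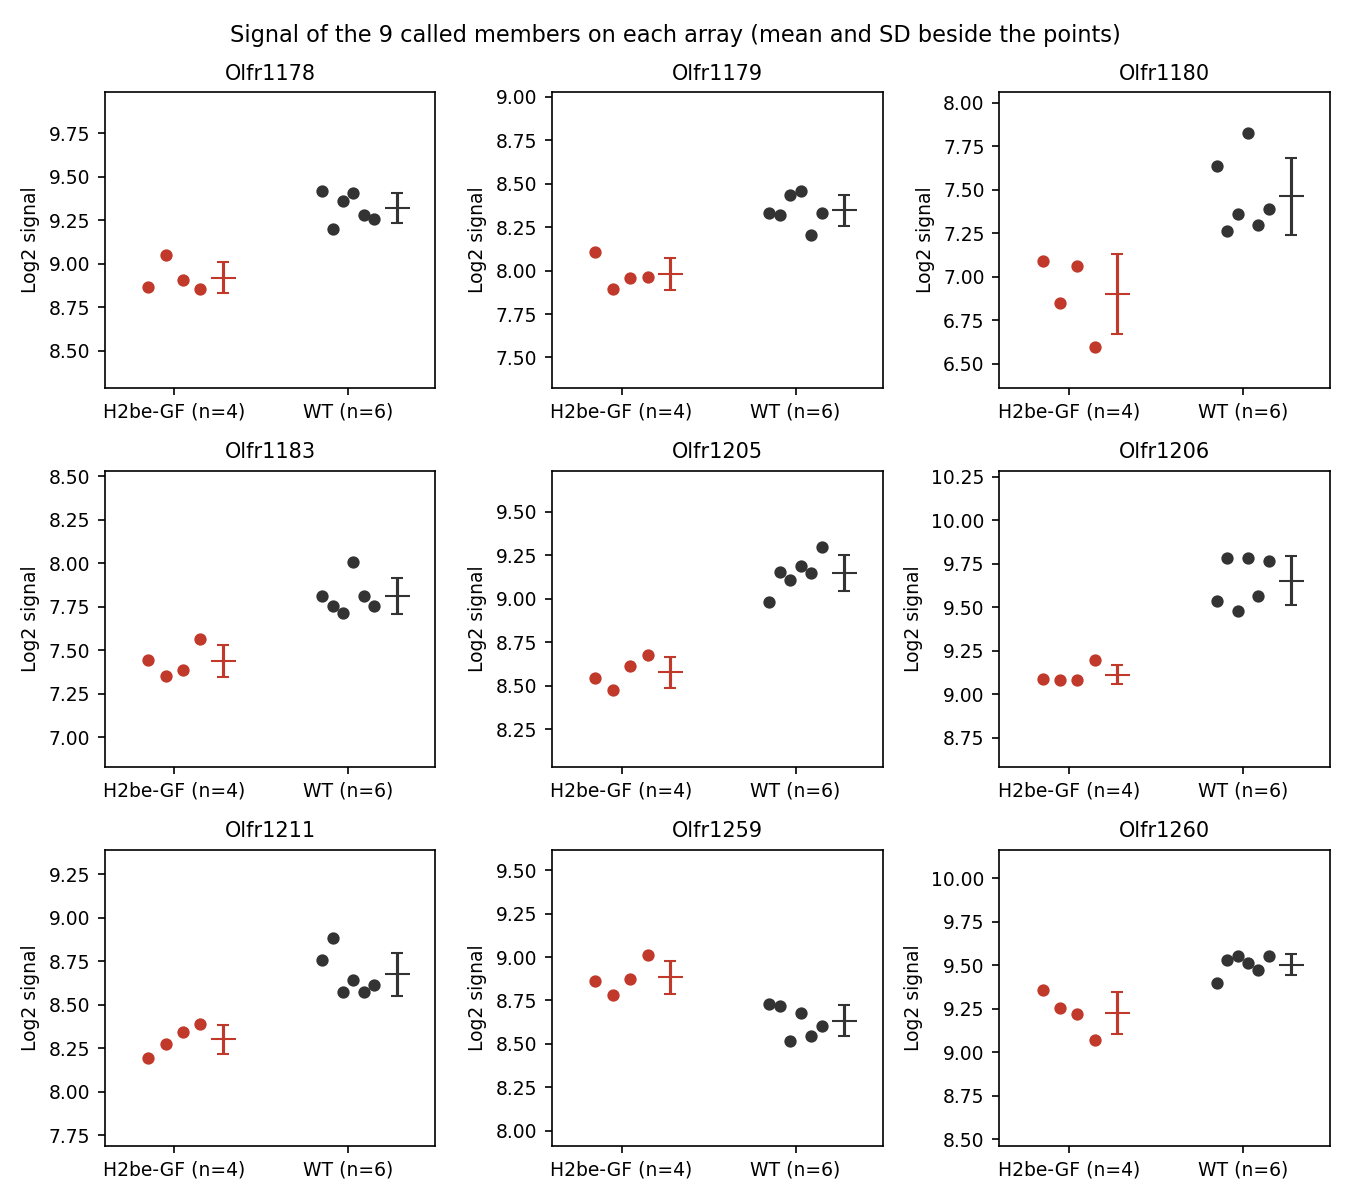
Log2 signal (vertical axis) of the 9 called members on each array, H2be-GF at the left and WT at the right of each panel; points are arrays, and the bars beside them are group means with SD. In each of the 9 panels the H2be-GF points lie wholly on one side of the WT points, by a clear margin for Olfr1205 and Olfr1206 and a narrow one for Olfr1259 and Olfr1260.

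The groups did not overlap for 8 members lower and 1 higher in H2be-GF mice, where 5.48% of all ORs did not overlap with H2be-GF lower and 4.01% with H2be-GF higher, 9.49% in all. These were the 9 called members. Among the 18 dimmer members, Olfr1199 of MOR230 (chosen after its values were seen) was also without overlap: it measured 6.44, 6.56, 6.57 and 6.41 in H2be-GF mice, against 6.65, 6.75 and 6.94 as the lowest, median and highest values in WT mice. It was below the mean of 7 needed for the test, and over ORs above 5 its change of -0.29 had an adjusted p of 0.0434. The other dim members mostly ran the other way. A positive difference was seen for 14 of the 18, with a median of 0.18, where the other ORs with means above 5 and up to 7 gave 159 of 252 and a median of 0.05.

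By subfamily, MOR230 and MOR225 held most of the calls. Of the 6 MOR230 receptors above 7, Olfr1183, Olfr1205 and Olfr1206 were called lower; the subfamily's median difference was -0.32 and 5 of the 6 were negative. The uncalled ones ran between Olfr1195 at -0.26 (adjusted p = 0.0614) and Olfr1209 at 0.03, with Olfr1186 at -0.25 (adjusted p = 0.207). Of the 8 MOR225 receptors above 7, 3 were called lower and 7 were negative, but the median was only -0.06. By these synonyms, no OR of MOR230 or MOR225 outside the cluster was on the arrays.

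MOR233 had 18 members above 7, of which Olfr1211 alone was called. Their differences ran between -0.37 and 0.31, with 9 negative and a median of -0.02. At the upper end stood Olfr1216 (chosen after its values were seen), with 8.11, 8.06, 8.09 and 7.93 in H2be-GF mice, against 7.32, 7.78 and 7.98 as the lowest, median and highest values in WT mice. The groups overlapped and the difference of 0.31 was not called (adjusted p = 0.122). MOR231 had 11 members above 7, none called, with 3 negative and a median of 0.06; before adjustment, 2 of them were higher and 2 lower at a p under 0.05. MOR174 had 7, none called, with a median of 0.00 and none at an unadjusted p under 0.05.

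Some uncalled receptors lay close to the threshold, and are given here as chosen after their values were seen. Olfr1226, of MOR233, measured 9.34, 9.44, 9.64 and 9.71 in H2be-GF mice, against 9.67, 9.80 and 9.87 as the lowest, median and highest values in WT mice. Only its highest H2be-GF array reached into the WT range, and the difference was -0.26 (adjusted p = 0.0614). Olfr1269, of MOR228, measured 7.87, 7.83, 7.57 and 7.76 in H2be-GF mice, against 7.31, 7.50 and 7.62 in WT mice, given in the same way, a difference of 0.28 (adjusted p = 0.0614). Olfr1264, the only MOR236 receptor and the brightest member with a mean of 10.67 over all arrays, differed by -0.07 (95% interval -0.22 to 0.08).

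**Figure D3:**
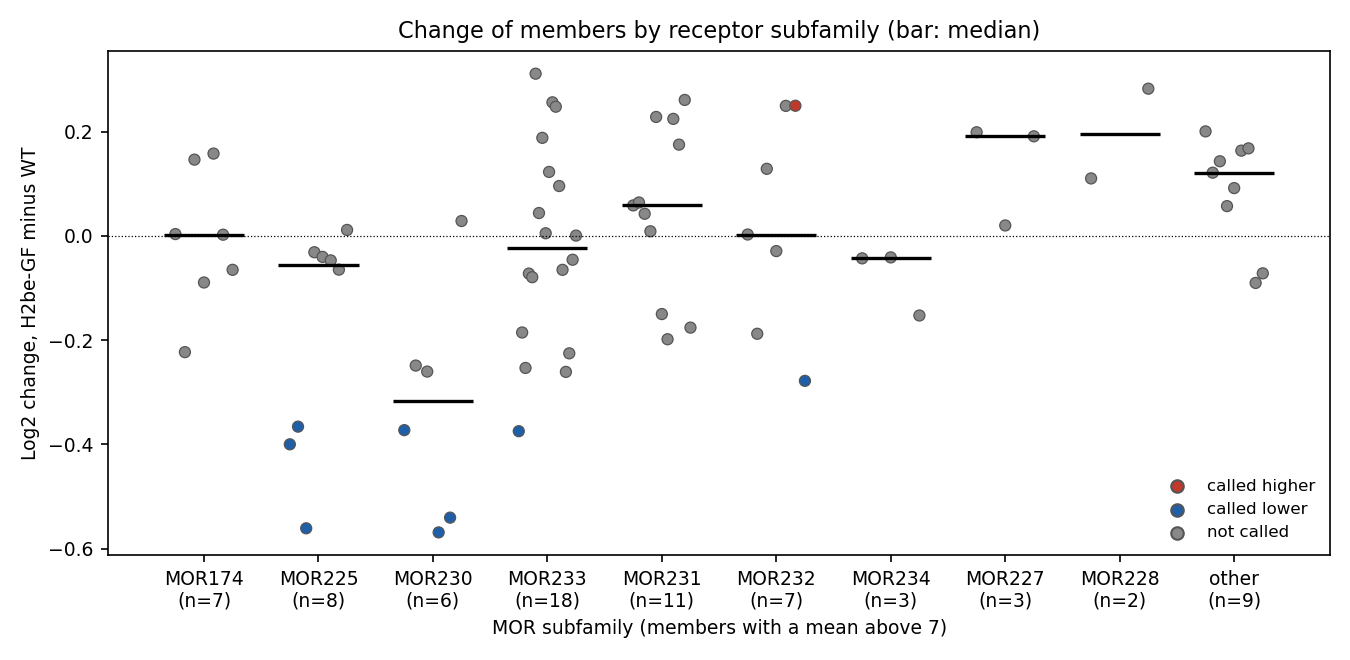
Log2 change (H2be-GF minus WT) of the members above 7, 1 point per receptor, by MOR subfamily; short lines are subfamily medians. The MOR230 points lie mostly below 0 with a median of -0.32, and the MOR233 points are spread on both sides with a median of -0.02.

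Likeness of sequence and closeness on the chromosome were compared with likeness of change. Adjacent members above 7 differed in their change by a median of 0.179 on the log2 scale (73 pairs), and all 2701 pairs by 0.195. Pairs of the same subfamily differed by 0.195 (300 pairs) and all other pairs also by 0.195 (2401 pairs, some with a member of several or no subfamilies). The most similar coding starts stood closer together: 14 pairs among 21 members had at least 90% of the 50 bases in common. Their changes differed by a median of 0.11, and by at most 0.17, against 0.19 over all 1540 pairs with a coding start. The 1540 pairs include members with a mean of 7 or below, and no lower cut of likeness was examined. Probe sets of such near-identical receptors may bind each other's transcripts, which was not tested. Members share their arrays, and these medians are given as descriptions.

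Of the members above 7, the first 31 members in order held 4 lower of 21 (19.0%), the next 31 held 3 of 28 (10.7%), and the last 30 held 1 lower and 1 higher of 25. The stretch between Olfr1178 and Olfr1213, whose limits were chosen after the values were seen and which therefore has no test, held 7 of the 8 falls. Of its 21 members above 7, 16 had a negative difference, with a median of -0.19. Outside it, 53 members had a median of 0.04, with 1 called lower and 1 higher. The ends of the cluster were not called: Olfr1148 differed by 0.20 (adjusted p = 0.175) and Olfr1272 by 0.19 (adjusted p = 0.252). On either side of the cluster, Olfr987 to Olfr1145 gave 5 higher and 3 lower of 68 with a median of 0.06, and Olfr1273 to Olfr1289 gave 0 higher and 5 lower of 13 with a median of -0.25, by the same limma fit.

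**Figure D4:**
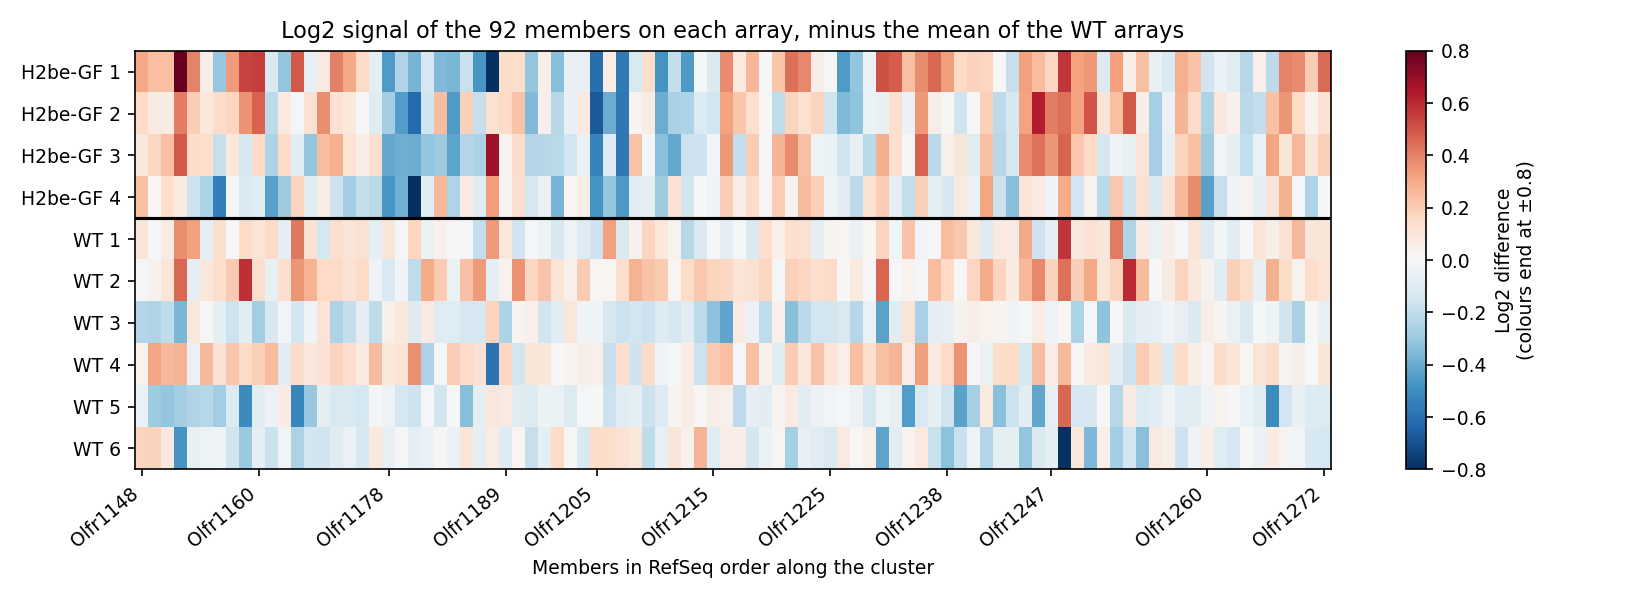
Log2 signal of each of the 92 members (columns, in RefSeq order) on each array (rows, H2be-GF above WT), as the difference from the mean of the 6 WT arrays; blue is lower, red is higher and colours end at 0.8. Columns for the 8 members called lower are blue on all 4 H2be-GF arrays; some uncalled columns, such as that of Olfr1181, are so too.

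The single arrays told the same for the 8 members called lower, which the choice of members fixes in its direction. Their median deviation from the WT mean was -0.41, -0.45, -0.40 and -0.45 on the H2be-GF arrays and ran between -0.07 and 0.10 on the WT arrays. For the 6 MOR230 receptors the H2be-GF arrays gave -0.42, -0.41, -0.34 and -0.19. The median over all members above 7 was 0.04, 0.04, -0.02 and -0.05 on the H2be-GF arrays, and lay between -0.09 and 0.14 on the WT arrays. Array-wide shifts of the members lay on both sides of 0 in either genotype.

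Sex is not given for any array, and the arrays fell into a set high and a set low in Xist, the RNA of the inactive X chromosome, with 2 H2be-GF and 3 WT arrays in the high set and 2 and 3 in the low set. Of the 74 members, 52 (70.3%) differed in the same direction in both sets, against 71.8% of all ORs. All 9 called members were among them, which was fixed in advance because their groups of arrays did not overlap. The change of Olfr1205 was -0.57 in both sets, that of Olfr1206 -0.51 in the high set and -0.57 in the low set, and that of Olfr1211 -0.50 and -0.25. By limma's interaction test no member differed between the sets, and none did at an unadjusted p under 0.05 (smallest adjusted p = 0.997; 0 of 748 ORs, 0.0%). Within either set alone, limma called no member after adjustment over ORs. At an unadjusted p under 0.05, 9 members were lower and 3 higher in the high set, and 8 lower and 4 higher in the low set. The shares over all ORs were not computed within the sets, so these counts cannot be set against other ORs.

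**Figure D5:**
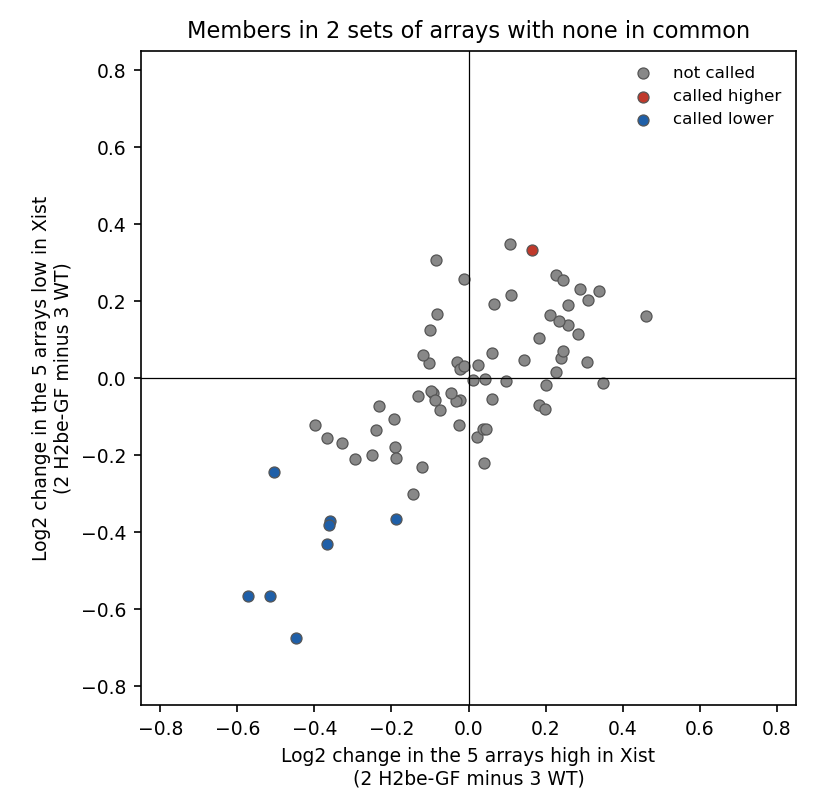
Log2 change (H2be-GF minus WT) of the 74 members above 7 in the arrays low in Xist (vertical axis) against the arrays high in Xist (horizontal axis), 1 point per receptor. In 52 of the 74 members both sets have the same sign. The 9 called members are among these, which was fixed in advance because their groups of arrays did not overlap.

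Promoter windows from RefSeq were at hand for 82 members. Each runs from 250 bases before to 50 bases after the annotated start, and in 56 of the 83 windows (67.5%) the annotated start was at a start codon, so that many annotated starts are those of the coding sequence and not of the transcript. A start codon was there in 72.3% of OR windows but in 5.83% of all windows. The shares over all windows given below thus come from a largely different kind of window. Receptor promoters are known for homeodomain sites, bound by factors such as Lhx2, and for O/E sites, bound by the Ebf proteins. The homeodomain core TAATTA, which reads the same on both strands, was found in 25 of 83 member windows (30.1%), in 18.4% of the windows of ORs on the arrays and in 5.29% of all windows of this length. The O/E core CCCNNGGG, likewise the same on both strands and with no overlap with the first, was found in 2 member windows (2.41%), in 2.99% of OR windows and in 13.7% of all windows. Among members called lower, 3 of 5 windows held TAATTA, and among uncalled members above 7, 17 of 60 (28.3%). The windows of Olfr1205 (GRCm38.p6, chr2:88829507-88829806, plus strand) and Olfr1180 (chr2:88412640-88412939, minus strand), whose annotated starts are not at a start codon, are shown for 2 of the largest falls, with the TAATTA core in capitals.
Olfr1205: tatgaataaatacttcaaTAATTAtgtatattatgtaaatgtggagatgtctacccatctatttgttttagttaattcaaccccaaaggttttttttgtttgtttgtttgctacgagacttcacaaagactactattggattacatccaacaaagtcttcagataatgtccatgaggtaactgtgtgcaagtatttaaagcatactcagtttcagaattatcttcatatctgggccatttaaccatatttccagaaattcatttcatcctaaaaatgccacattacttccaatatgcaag
Olfr1180: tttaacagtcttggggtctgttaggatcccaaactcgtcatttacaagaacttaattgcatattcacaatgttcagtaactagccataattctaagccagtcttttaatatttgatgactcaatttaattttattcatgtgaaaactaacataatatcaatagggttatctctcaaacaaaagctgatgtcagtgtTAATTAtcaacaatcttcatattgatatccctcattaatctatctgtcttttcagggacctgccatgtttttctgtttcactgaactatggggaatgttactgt
The core starts at base 19 of the Olfr1205 window and at base 197 of the Olfr1180 window. A match of these letters is a description of the sequence and was not tested as a site.

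Mature olfactory neuron markers were present at high signal, Omp at 12.78 ± 0.03 in H2be-GF mice (SD, n = 4) and 12.88 ± 0.04 in WT mice (SD, n = 6), and its difference of -0.10 was not called (limma, adjusted p = 0.659). None of the 11 mature neuron markers tested was called, with 1 lower at an unadjusted p under 0.05. Their median difference was -0.10, and their mean signal was 11.70 to 11.71 on the H2be-GF arrays, below the 11.72 to 11.82 of the WT arrays. The 4 respiratory ciliated cell markers also had a lower mean on H2be-GF arrays, 9.48 to 9.60 against 9.63 to 9.76 on WT arrays, with 0 called and 3 lower at an unadjusted p under 0.05. Mean signals of the immature neuron, progenitor, horizontal basal, sustentacular, vomeronasal and blood markers, and of the epithelial zone genes, overlapped between genotypes. None of the 4 zone genes was called. Ncam2, an adhesion molecule that marks the ventral and lateral zones, differed by 0.26 (limma, adjusted p = 0.147) and was the only one of the 4 past 0.05 before adjustment; Nrp2 differed by 0.10, while Nqo1, a marker of the dorsal zone, differed by -0.14 and Acsm4 by -0.12. The part of any of these in the receptors' differences was not tested.

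Of the 8 genes of odorant signal transduction, such as the cyclase Adcy3 and the channel subunit Cnga2, none was called by limma when adjusted over all probe sets; 1 was lower with p under 0.05 before adjustment. None of the 4 receptor trafficking genes was called or reached an unadjusted p of 0.05. Of the 12 genes of receptor choice and feedback, 1 was called higher: Lhx2, a homeodomain factor of olfactory neurons, measured 11.46 ± 0.03 in H2be-GF mice (SD, n = 4) and 11.09 ± 0.06 in WT mice (SD, n = 6), a difference of 0.37 with a standard error of 0.06 (adjusted p = 0.0425, over all probe sets). Before adjustment, 3 genes of this list were higher and 0 lower with p under 0.05. For these lists too, no share over all probe sets before adjustment was computed.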

How the data were processed

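RNA of whole MOE was hybridised to Affymetrix arrays, 4 of H2be-GF and 6 of WT mice. The authors checked the scans for outliers with arrayQualityMetrics and summarised them per probe set in Affymetrix Expression Console (IterPLIER, sketch-quantile normalization). The deposited values are log2 signals per probe set, and tool versions and the array's genome build are not given in the sources used here. No scan dates or batches were at hand, and all per-sample columns were mapped. The number of arrays limits the precision.

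Groups followed the genotype label. A linear model (H2be-GF minus WT, two-sided) was fitted with limma 3.58.1 in R 4.3.3, with lmFit and eBayes and no covariate, on all 23194 probe sets that had a symbol and averaged above 5; 95% intervals come from the same fit. P-values were adjusted by Benjamini-Hochberg over the 748 ORs with a mean above 7, as in the study's methods, and also over all probe sets tested, at 0.05. The fit was tested on simulated data. Plots were drawn with matplotlib 3.10.9.

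Named genes were all called members, the first and last member, the called members' neighbours above 7, and any uncalled member whose groups did not overlap. Olfr1181, Olfr1186 and Olfr1195 were named outside these rules. Other exceptions are marked where they occur. The members and lists were chosen with earlier results of these data known. Genes were named by the platform annotation and matched to RefSeq by Entrez ID (92 of 92), which gave order and MOR names; 4 MOR synonyms without a hyphen were read as if they had one. Protein sequences were not used here, so the planned protein comparison was replaced by the first 50 coding bases, where the RefSeq window held them. Markers and pathway genes were fixed lists. Alternatives covered the adjustment, filters, normalization, centring, added constant, variance model, array weights, Xist set, replicate numbers and leaving out each array.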

Additional observations from a re-analysis of the deposited data

Results flagged for a closer look

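Olfr1206 had 1 H2be-GF array apart from the other 3: H2be-GF 4 measured 9.19, where the next highest was 9.09 and the gap took 0.92 of the group's range. The array still lay below all WT arrays. Olfr1183 had 1 WT array apart from the other 5: WT 4 measured 8.01, where the next highest was 7.81 and the gap took 0.657 of the range. Chance marks about 1 in 20 groups in this way. Without either array both receptors remained called lower.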

How the results depend on the processing

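Called lower by limma were 2 members when adjusted over all probe sets, 1 with the replicate block and 0 within either Xist set; leaving out single arrays gave 6 to 9, and the other settings 7 to 12. Called higher were 0 members (1 in the reported fit) when adjusted over all probe sets, with ORs above 5, with no filter, centred on the mean of ORs, with the replicate block, with the Xist set as a covariate and within either Xist set, 3 centred on the array median and 4 with a variance trend and robust fit; leaving out single arrays gave 0 to 5, with 5 without WT 2 and 0 without H2be-GF 1 or 2 or WT 3, 4, 5 or 6. Over all probe sets, 2 falls became 0 when centred on the mean of ORs, 0 with the replicate block, 0 within either Xist set and 7 with the variance trend, and 0 to 2 without single arrays; rises were 0 throughout. No result reversed. The fits within an Xist set used fewer arrays, and the causes of these shifts were not tested. The median change of the members stayed between -0.06 and 0.03.

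Whether the replicate numbers pair the arrays is not given by the labels and was not tested. Same-numbered arrays' deviations correlated at 0.53, 0.22, -0.42 and 0.26 over all probe sets. The best-correlated WT array had the same number for H2be-GF 1 alone. With the replicate block, limma still called Olfr1205 alone (-0.53, adjusted p = 0.0471, with Olfr1206 at 0.0571). In that fit 14 members were lower and 4 higher at an unadjusted p under 0.05, and with ORs centred 14 and 11. For these fits too the shares over all ORs were not computed. Olfr1205 was lost only within the Xist sets, 2 of 24 alternatives; Olfr1259 was lost in 16.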
